A study of Homo sapiens with 8 samples.

Results

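DUS1L and DUS2L are human dihydrouridine synthases, and the RNAs they contacted in untreated cells were compared through 4 iCLIP libraries of the 8 in the series. The host was Flp-In T-REx 293, an established line derived from human embryonic kidney, with an integrated, tetracycline-inducible copy of 3xFLAG-DUS1L or of 3xFLAG-DUS2L. Members were the libraries titled as controls: 2 of DUS1L and 2 of DUS2L, which the series calls biological replicates. All 4 received tetracycline at 1 µg/mL for 12 h and again for 12 h in fresh medium, with no uridine analogue. The tagged enzyme is therefore an induced extra copy in a single line, and the cells' own DUS1L and DUS2L were not measured. The other 4 libraries received 100 µM 5-chlorouridine (5-ClUrd) in the second period and appear here only beside the untreated values.

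Dihydrouridine synthases reduce the double bond of uridine in tRNA, mostly in the D loop, the arm that helps fold the tRNA into its L shape. By studies of the yeast and human enzymes, the DUS1 type acts at positions 16 and 17 of the canonical tRNA numbering and the DUS2 type at position 20. iCLIP purifies RNA bound to a tagged protein and maps contacts at the scale of single nucleotides. Each deposited site carries a count, and its offset from the contacted base is not given here. The comparison addresses which tRNAs and which stretches of them each enzyme was found on before any trapping by an analogue.

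The sequences below show where counts fell in 8 tRNA references, each the one with the most counts in its family among those with a sequence here. A family is all references of one amino acid and anticodon. The 4 first sequences belong to families held well by DUS1L or by both enzymes, and the last 4 to families that DUS2L held. Capitals mark positions with at least 8% of the reference's counts, summed over an enzyme's libraries, in either enzyme (in an enzyme with at least 50 counts there). All are DNA letters from the 5′ end of the tRNA gene without intron, CCA or added bases, from RefSeq windows on GRCh38.p14.
tRNA-Arg-ACG-2-1: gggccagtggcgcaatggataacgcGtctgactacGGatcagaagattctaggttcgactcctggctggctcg
tRNA-Phe-GAA-1-5: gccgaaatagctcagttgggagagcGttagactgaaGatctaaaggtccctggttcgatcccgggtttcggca
tRNA-Ala-AGC-2-2: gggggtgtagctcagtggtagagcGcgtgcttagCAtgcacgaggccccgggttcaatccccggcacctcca
tRNA-Asn-GTT-4-1: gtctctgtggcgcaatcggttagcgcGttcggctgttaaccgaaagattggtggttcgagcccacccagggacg
tRNA-His-GTG-1-3: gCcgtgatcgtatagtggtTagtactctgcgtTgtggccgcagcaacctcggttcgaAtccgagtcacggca
tRNA-Gly-CCC-2-2: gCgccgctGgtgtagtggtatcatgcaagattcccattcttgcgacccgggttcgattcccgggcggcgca
tRNA-Pro-TGG-3-2: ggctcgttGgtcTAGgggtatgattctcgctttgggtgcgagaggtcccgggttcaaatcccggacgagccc
tRNA-Leu-AAG-2-2: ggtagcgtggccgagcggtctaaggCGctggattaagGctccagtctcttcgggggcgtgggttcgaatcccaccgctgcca
In order, the genes are TRR-ACG2-1 at chr3:45688999-45689071 (minus strand), TRF-GAA1-5 at chr13:94549650-94549722 (minus), TRA-AGC2-2 at chr6:28863685-28863756 (minus), TRN-GTT4-1 at chr1:16889677-16889750 (plus), TRH-GTG1-3 at chr1:148281365-148281436 (plus), TRG-CCC2-2 at chr16:636736-636806 (minus), TRP-TGG3-2 at chr14:20684016-20684087 (plus) and TRL-AAG2-2 at chr6:28943622-28943703 (minus). The strand was taken as the one that shows the anticodon in its loop and GTTC in the T arm. The capitals lie around the junction between the D and anticodon stems (position 25, 26 or 27) in the arginine, phenylalanine, alanine, asparagine and leucine tRNAs, and, in all of these but asparagine, at the anticodon's last base or just 3′ of it (positions 35 to 38). In the glycine tRNA they lie near the 5′ end, in the proline tRNA at position 9 and in the D arm, and in the histidine tRNA also in the anticodon and T loops. Those histidine capitals, at positions 33 and 58, come from the few DUS1L counts alone. DUS2L held 0.47% and 6.77% there. Of 22 capitals, 12 are G (54.5%), and G makes up 33.6% of the 589 bases. Positions are counted along each reference from 1 and need not equal the canonical number.

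Depth set the limits. Total counts were 145380 and 7395 in the DUS1L libraries and 130576 and 172804 in the DUS2L libraries, of which 0.352% to 0.728% were antisense and left out. A total of 3 counts, the limit that a count of 0 allows, equal 0.0407% of sense counts in the second DUS1L library and at most 0.00231% in the other 3. The largest site held 1248 and 555 counts in the DUS1L libraries and 1314 and 1348 in the DUS2L libraries. In the treated libraries it held 1061 to 1436, at 363024 to 824657 sense counts. Beyond the second DUS1L library the largest site therefore did not rise with depth. Whether counts per site were limited was not tested. Sites above 500 counts held 41.8% and 15.0% of DUS1L counts and 23.9% and 34.9% of DUS2L counts. Log2 family shares of the replicates correlated at 0.867 in DUS1L (across 43 families) and 0.994 in DUS2L (across 54). Deposited sites lay only on cytosolic tRNA and rRNA, so each share is of these RNAs, and a larger share for one family lowers all others. More contact, more of the tRNA and more of the enzyme cannot be told apart. The names of the site files also differ by enzyme, in the treated libraries too: those of DUS2L mention an earlier mapping to non-coding RNA and those of DUS1L do not. In every share and site compared here, tRNA and rRNA alike, a difference in making the files and a difference between the enzymes therefore cannot be told apart.

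The 2 enzymes were found on largely different tRNAs. DUS1L counts lay mostly on arginine tRNAs, with valine and phenylalanine tRNAs next, and DUS2L counts on leucine, serine, aspartate and histidine tRNAs and on 28S rRNA. Tested by quasi-likelihood in edgeR, with p-values adjusted after Benjamini and Hochberg over all families, 28 of 55 had a higher share in DUS2L (50.9%) and 21 a lower one (38.2%). In all 49 the groups did not overlap, and 53 of the 55 families did not overlap whether called or not. The median log2 fold change, DUS2L over DUS1L, was 2.41 over the 55 families and -0.08 over the 50 tRNA families. With 89.1% of families called, a call by itself sets no family apart, and size and consistency carry the description. With TMM scaling the median over families was 2.24 and with DESeq2's size factors 3.44, so each log2 value moves by such a shift when the scaling is changed. Leaving out the first or the second DUS2L library left 18 families higher in each case, and 6 or 7 lower.

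**Figure D1:**
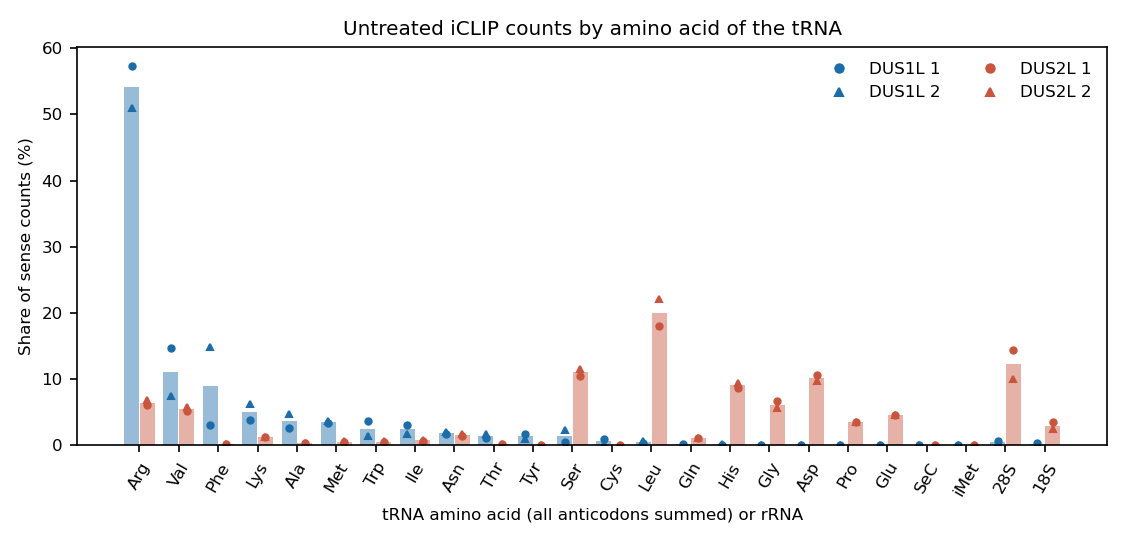
Share of sense counts (%) by the amino acid of the tRNA, all anticodons summed, and on 28S and 18S rRNA. Bars are means of 2 libraries, points single libraries. Arginine tRNA held 57.3% and 50.9% of DUS1L counts against 6.14% and 6.81% of DUS2L counts, and leucine tRNA 0.391% and 0.706% against 18.03% and 22.1%.

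All 5 arginine families were lower in DUS2L, against 38.2% of all families. Together they held 54.1% ± 4.54 of DUS1L and 6.48% ± 0.474 of DUS2L counts (SD, n = 2 each), and their median log2 fold change was -3.56. tRNA-Arg-TCG, which reads CGA codons, led DUS1L with 21.2% and 20.6%, and took 3.35% and 3.58% in DUS2L. Its log2 fold change was -2.59 ± 0.11 (SE; adjusted p = 0.0004), and the replicates of each enzyme lay close together. tRNA-Arg-CCT held 10.3% in both DUS1L libraries and 0.879% and 0.867% in DUS2L (log2 -3.56 ± 0.24, adjusted p = 0.00086). It is a reader of AGG codons. tRNA-Arg-TCT, the reader of AGA codons, held 15.4% and 6.77% against 0.752% and 0.818% (log2 -3.82 ± 0.49, adjusted p = 0.00273, and -3.11 without the first DUS1L library). tRNA-Arg-ACG held 5.29% and 8.25% against 0.382% and 0.330% (log2 -4.25 ± 0.44, adjusted p = 0.00147). tRNA-Arg-CCG held 5.17% and 5.03% against 0.776% and 1.21% (log2 -2.36 ± 0.42, adjusted p = 0.00634), the smallest difference of the 5. With the first DUS2L library left out, 4 of the 5 were called, and with DESeq2's Wald test 3, with all signs as before.

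tRNA-Phe-GAA, the single phenylalanine family, was also a DUS1L tRNA, but its share differed between the DUS1L libraries. It held 3.03% and 14.8% in DUS1L and 0.226% and 0.192% in DUS2L (log2 -5.41 ± 0.94, adjusted p = 0.00574). The 4 values did not overlap, while the spread within DUS1L was large. Without the second DUS1L library, which holds 7369 sense counts, the log2 fold change was -3.86, and without the first it was -6.15. tRNA-Phe-GAA was called with any single library left out. The methionine elongator tRNA-Met-CAT held 3.36% and 3.64% in DUS1L and 0.461% and 0.603% in DUS2L (log2 -2.72 ± 0.46, adjusted p = 0.00555), with replicates close together. It was not called without the first DUS2L library (log2 -2.54) or without the second (log2 -2.92). The initiator, tRNA-iMet-CAT, was called higher in DUS2L on few counts, 2 in DUS1L and 38 in DUS2L, and its pooled DUS2L to DUS1L ratio was 9.54 with a 95% counting interval of 2.47 to 81.6. Its call was lost without the first DUS1L library and with either DUS2L library left out.

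The 3 alanine, 3 threonine, 2 tyrosine and 1 cysteine families were lower in DUS2L as well, at smaller shares. tRNA-Ala-AGC held 1.78% and 2.71% in DUS1L against 0.267% and 0.277% in DUS2L. tRNA-Ala-TGC held 0.554% and 1.55% against 0.0269% and 0.0337% (log2 -5.08 ± 0.73, adjusted p = 0.00353). tRNA-Ala-CGC held 0.227% and 0.516% against 0.0154% and 0.0186% (log2 -4.38 ± 0.58). In each alanine family both DUS1L values stood above both DUS2L values. Over all 55 families the groups did not overlap in 53, and 38.2% of families were called lower. tRNA-Tyr-GTA held 1.77% and 0.991% against 0.130% and 0.104% (log2 -3.57 ± 0.54). tRNA-Cys-GCA held 0.959% and 0.244% against 0.0400% and 0.0250% (log2 -4.26 ± 0.83). tRNA-Thr-CGT held 0.346% and 0.828% against 0.0600% and 0.0482% (log2 -3.40 ± 0.59). The rare tRNA-Tyr-ATA rested on 37 counts in DUS1L and 1 in DUS2L, a pooled ratio of 0.0136 (95% counting interval 0.000335 to 0.0805). These calls needed both DUS2L libraries: with either left out, the alanine, threonine and cysteine families and tRNA-Tyr-GTA were not called, with adjusted p from 0.0686 to 0.162 for the 5 given here with a log2 fold change except tRNA-Tyr-ATA, and all kept their sign. Without the second DUS1L library the log2 values were -4.17 for tRNA-Ala-TGC, -3.72 for tRNA-Ala-CGC, -2.69 for tRNA-Thr-CGT and -4.91 for tRNA-Cys-GCA, and without the first -2.93 for tRNA-Cys-GCA.

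Type II tRNAs, which have a long variable arm and carry leucine, serine or selenocysteine, lay on the DUS2L side. Of the 10 families, 9 were higher in DUS2L, none was lower, and the median log2 fold change was 4.23 against 2.41 over all families. Over all families 50.9% were higher and 38.2% lower. Of the 40 type I families 14 were higher and 21 lower, with a median of -1.74. The 5 leucine families were all higher and went from 0.548% ± 0.223 of DUS1L to 20.04% ± 2.84 of DUS2L counts (SD, n = 2 each). tRNA-Leu-CAA held 0.141% and 0 in DUS1L and 5.89% and 7.06% in DUS2L (log2 6.16 ± 1.24, adjusted p = 0.00829, and 5.52 without the second DUS1L library), and its pooled ratio was 48.7 (95% counting interval 42.5 to 56.2). Without the first DUS1L library its DUS1L count is 0. tRNA-Leu-CAG had 5 and 2 counts in DUS1L and held 5.01% and 6.34% of DUS2L counts (log2 9.85 ± 1.07, adjusted p = 0.00161). tRNA-Leu-TAG had 13 and 1 counts in DUS1L and held 3.46% and 3.83% in DUS2L (log2 8.55 ± 0.66, adjusted p = 0.000871). tRNA-Leu-AAG, whose sequence is given above, had 1 count in DUS1L and 5969 in DUS2L, 2997 times the share (95% counting limits 538 and 118406). The exception in size was tRNA-Leu-TAA, at 0.236% and 0.665% against 1.95% and 2.66% (log2 2.41 ± 0.70, adjusted p = 0.0278). When 1 library was left out, between 4 and 5 of the leucine families stayed called.

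The serine families were higher in DUS2L in 3 of 4 cases, against 50.9% of all families. tRNA-Ser-TGA held 0.239% and 1.07% of DUS1L and 5.93% and 6.64% of DUS2L counts (log2 3.31 ± 0.83, adjusted p = 0.0181). Its groups did not overlap, and the log2 fold change was 4.72 without the second DUS1L library and 2.55 without the first. tRNA-Ser-CGA held 0.0637% and 0.516% against 2.79% and 3.20%. tRNA-Ser-AGA held 0.00901% and 0.0950% against 0.878% and 0.924%. tRNA-Ser-GCT did not pass the test, at 0.170% and 0.624% against 0.887% and 0.840% (log2 1.19 ± 0.73, adjusted p = 0.175). With either DUS2L library left out 2 of the 4 serine families were called, and without sites above 500 counts 1 of 4 was, tRNA-Ser-TGA then reaching an adjusted p of 0.0971. tRNA-SeC-TCA, which carries selenocysteine, had 3 counts in DUS1L, and its pooled ratio was 12.2 (95% counting interval 4.02 to 60.6). Its call was lost without the first DUS1L library and with either DUS2L library left out.

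All measured families of the type I tRNAs that carry aspartate, histidine, glycine, glutamate, proline or glutamine were higher in DUS2L. Over all families 50.9% were. tRNA-Asp-GTC was the leading tRNA of DUS2L with 10.6% and 9.68%, and it held 0.0637% and 0.0407% in DUS1L (log2 7.49 ± 0.39, adjusted p = 0.000467). tRNA-His-GTG, a single reference that names 9 genes, held 8.74% and 9.44% against 0.0554% and 0.204% (log2 6.34 ± 0.80, adjusted p = 0.00265). Without the second DUS1L library this was 7.36, and without the first 5.48. The glycine families reached 6.17% ± 0.727 of DUS2L counts and were all higher (SD, n = 2). tRNA-Gly-CCC, with 23 and 2 counts in DUS1L, held 3.88% and 3.24% in DUS2L (log2 7.61 ± 0.66, adjusted p = 0.00095). tRNA-Gly-TCC, with 7 and 0 counts, held 2.09% and 1.77% (log2 8.75 ± 0.76), a pooled ratio of 414 (95% counting interval 201 to 1030). tRNA-Gly-GCC differed less, at 0.0963% and 0 against 0.719% and 0.646% (log2 3.39 ± 0.99, adjusted p = 0.0278). Of these 3, 2 were called with either DUS2L library left out.

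Both glutamate and both glutamine families were higher in DUS2L. tRNA-Glu-TTC had 15 and 0 counts in DUS1L and held 2.97% of each DUS2L library (log2 8.35 ± 0.82, adjusted p = 0.00142). tRNA-Glu-CTC had 6 and 0 counts and held 1.59% and 1.61% (log2 8.68 ± 0.72, adjusted p = 0.00095). tRNA-Gln-CTG held 0.211% and 0.122% in DUS1L against 1.00% and 1.04% in DUS2L (log2 2.55 ± 0.47, adjusted p = 0.00658), with no overlap between the groups. tRNA-Gln-TTG had 1 count in DUS1L, and its pooled share was 131 times higher in DUS2L (95% counting limits 23.2 and 5176). Both glutamate families rested on the first DUS1L library for their size: without it the DUS1L count is 0, and the list's fitted median, no bound, went from 8.51 to 14.1. The pooled share of tRNA-Glu-TTC was 300.5 times higher in DUS2L (95% counting limits 182 and 537), and that of tRNA-Glu-CTC 404 times (186 and 1103). With either DUS2L library left out, 1 of the 2 glutamine families was called.

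The proline families were nearly empty in DUS1L, with 4 counts between them in the 2 libraries. tRNA-Pro-AGG had 0 counts in DUS1L and 627 and 770 in DUS2L, at least 234-fold higher against 3 counts over the DUS1L group. tRNA-Pro-CGG had 1 count in DUS1L against 1906 and 2475, 2200 times the share (counting limits 395 and 86910). tRNA-Pro-TGG had 2 and 1 counts against 2101 and 2911, 839 times the share (counting limits 287 and 4069). All 3 were called higher, and each stayed so with any single library left out, though without the first DUS1L library they are set against 7369 sense counts, where 0 counts allow up to 0.0407%. The list's median log2 fold change was 10.89, or 9.43 with tRNA-Pro-AGG at its bound, against 2.41 over all families.

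**Figure D2:**
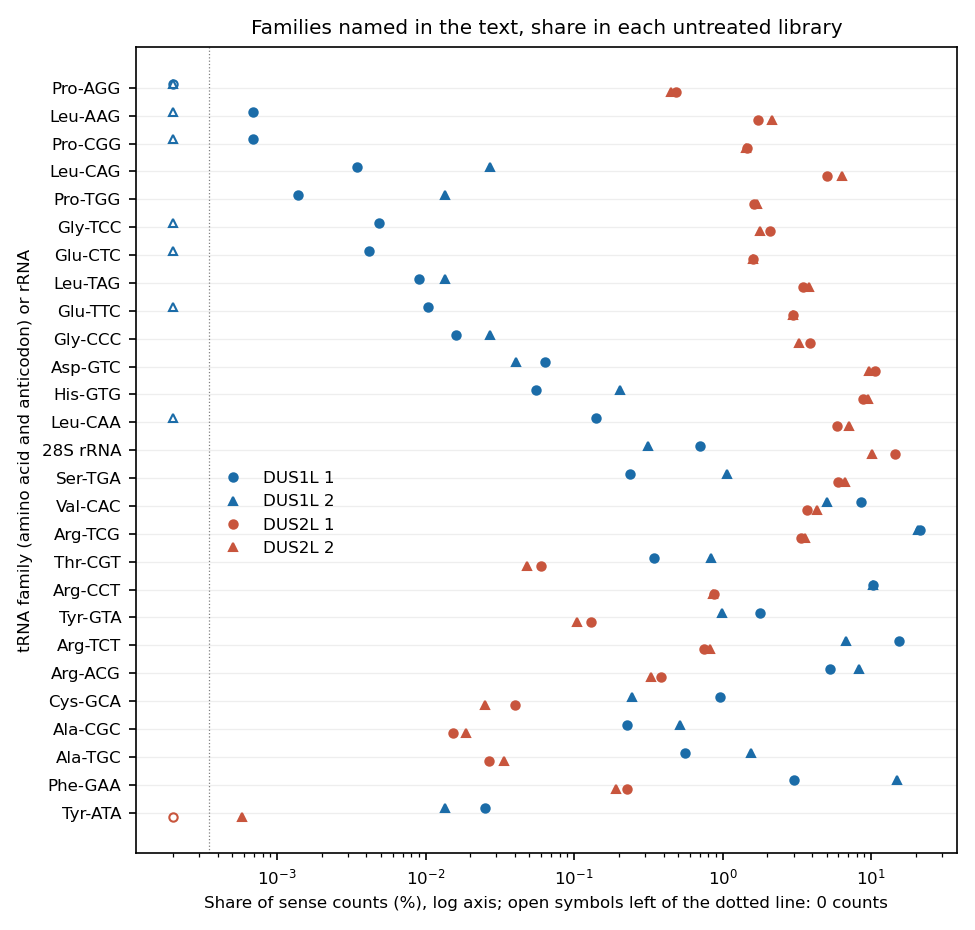
Share of sense counts (%, log axis) in each untreated library for the 27 families (28S rRNA among them) chosen by rule, ordered by log2 fold change. Open symbols at the left are libraries with 0 counts. From tRNA-Tyr-ATA up to tRNA-Val-CAC the DUS1L symbols lie to the right of the DUS2L symbols, and from tRNA-Ser-TGA upward they lie to the left.

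In a small set of tRNAs the shares of the enzymes lay close or were not called different. tRNA-Asn-GTT held 1.79% and 1.99% of DUS1L and 1.42% and 1.78% of DUS2L counts (log2 -0.24 ± 0.44, adjusted p = 0.618). tRNA-Val-AAC held 1.21% and 0.787% against 1.06% and 1.07%, with overlapping values (adjusted p = 0.873). tRNA-Val-CAC held 8.52% and 5.02% against 3.72% and 4.31% (log2 -0.76 ± 0.34, adjusted p = 0.0927). Its direction depended on the scaling: with DESeq2's size factors the log2 fold change was 0.47, and without the second DUS1L library it was -1.09 and called (adjusted p = 0.000594). tRNA-Val-TAC differed, at 5.01% and 1.68% against 0.496% and 0.437% (log2 -2.85 ± 0.71, adjusted p = 0.0176), and was not called with either DUS2L library left out. tRNA-Lys-TTT was not called either, at 2.62% and 1.25% against 0.798% and 0.875% (log2 -1.22 ± 0.56, adjusted p = 0.0937). tRNA-Ile-GAT (40 and 0 counts in DUS1L) and tRNA-Ser-GCT complete the 6 families not called. A p above the threshold does not show that these shares are equal.

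The same contrast in the 4 libraries with 5-ClUrd, which share no library with the untreated ones, gave values that were mostly of the same sign and often smaller. For tRNA-Arg-TCG the treated log2 fold change was -2.90 ± 0.23, for tRNA-Arg-CCT -2.41 ± 0.16 and for tRNA-Phe-GAA -3.60 ± 0.34 (SE). For tRNA-Asp-GTC it was 4.22 ± 0.21, for tRNA-His-GTG 3.77 ± 0.25, for tRNA-Leu-CAA 3.24 ± 0.34 and for tRNA-Glu-TTC 8.01 ± 0.35. tRNA-Val-CAC was the one family of opposite sign, at -0.76 ± 0.34 untreated and 0.67 ± 0.18 treated. Several families lay closer to 0 with 5-ClUrd. tRNA-Ser-TGA was at 3.31 ± 0.83 untreated and 0.38 ± 0.22 treated, tRNA-Gln-CTG at 2.55 ± 0.47 and 0.49 ± 0.30, and tRNA-Cys-GCA at -4.26 ± 0.83 and -0.90 ± 0.45. tRNA-Thr-TGT was at -3.09 ± 0.45 untreated and -0.61 ± 0.33 treated, tRNA-Val-TAC at -2.85 ± 0.71 and -0.20 ± 0.29, and tRNA-Trp-CCA at -2.22 ± 0.65 and -0.18 ± 0.35. rRNA moved likewise. 28S went from 4.56 ± 0.52 to 2.23 ± 0.34, 18S from 3.68 ± 0.68 to 1.58 ± 0.53 and 5S from 4.20 ± 0.60 to 2.89 ± 1.06. The 45S spacers went from 2.56 ± 0.87 to 0.81 ± 0.57 and 5.8S from 3.40 ± 0.53 to 0.68 ± 1.26. These are values side by side, and the difference between the contrasts was not tested.

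Single references of a family did not always follow it. Of 214 references tested, 150 were called (70.1%), 72 higher in DUS2L (33.6%) and 78 lower (36.4%). With TMM scaling the split was 96 and 40, with DESeq2's size factors 90 and 42, and with its Wald test 84 and 28. The median log2 fold change over references was -0.55, and 1.44 with TMM and 1.20 with DESeq2's size factors, so the split between higher and lower references rests on the scaling. Near-identical references can share reads, so that a single reference is read beside its family. Of 44 families with at least 2 references tested, 13 had every reference higher, 7 every reference lower and 4 had references in both directions. In tRNA-Trp-CCA, the tryptophan tRNA, the reference tRNA-Trp-CCA-2-1 had 5246 and 105 counts in DUS1L and 214 and 361 in DUS2L (log2 -3.76 ± 0.60, adjusted p = 7.61e-06). The reference tRNA-Trp-CCA-4-1 had 8 and 0 against 410 and 683 (log2 6.16 ± 0.93, adjusted p = 3.91e-06). DUS1L was thus on the first of them almost alone, 99.8% and 100.0% of its tryptophan counts, while DUS2L had 34.0% and 34.3% there and 65.2% and 64.9% on the second. The family as a whole was called lower in DUS2L (log2 -2.22 ± 0.65), a call that several settings ended. It was not called with either DUS2L library left out (log2 -2.05 and -2.39), with the replicate block (log2 -2.07), without sites above 500 counts (log2 -1.37), or with DESeq2's size factors or Wald test (log2 -0.94 in both). Without the first DUS2L library tRNA-Trp-CCA-2-1 was not called (adjusted p = 0.0658), and without the second tRNA-Trp-CCA-4-1 was not (adjusted p = 0.0601).

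In tRNA-Leu-CAA, 5 of 6 references were higher in DUS2L, and tRNA-Leu-CAA-5-1 was lower, with 193 and 0 counts against 9 and 20 (log2 -3.10 ± 0.96, adjusted p = 0.00611). It held 94.6% of the family's counts in the first DUS1L library, the sole DUS1L library with a tRNA-Leu-CAA count, and 0.118% and 0.165% in DUS2L. Its direction rests on that library: without it the fitted value turns to 6.31. In the valine families the shared reference of 8 genes led by tRNA-Val-CAC-1-7 was lower (log2 -1.48 ± 0.50), as was tRNA-Val-CAC-4-1 (log2 -2.98 ± 0.64), while tRNA-Val-CAC-3-1 was higher, with 158 and 2 counts against 1022 and 1480 (log2 3.37 ± 0.65). tRNA-Val-CAC-3-1 made up 1.28% and 0.541% of the family in DUS1L and 21.1% and 19.96% in DUS2L. tRNA-Val-AAC-3-1 was higher in the same way, at 3.15% and 3.45% of its family in DUS1L and 18.1% and 16.7% in DUS2L (log2 2.41 ± 0.76). tRNA-Val-AAC-5-1 was lower, at 26.7% and 20.7% against 3.28% and 3.64% (log2 -2.76 ± 0.72). Under TMM and DESeq2's size factors tRNA-Val-CAC-1-7 turned to 0.54 and 0.31, and tRNA-Leu-CAA-5-1, tRNA-Val-CAC-4-1, tRNA-Val-AAC-4-1 and tRNA-Val-AAC-5-1 were no longer called but kept their sign. With either DUS2L library left out, none of the valine references named was called.

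**Figure D3:**
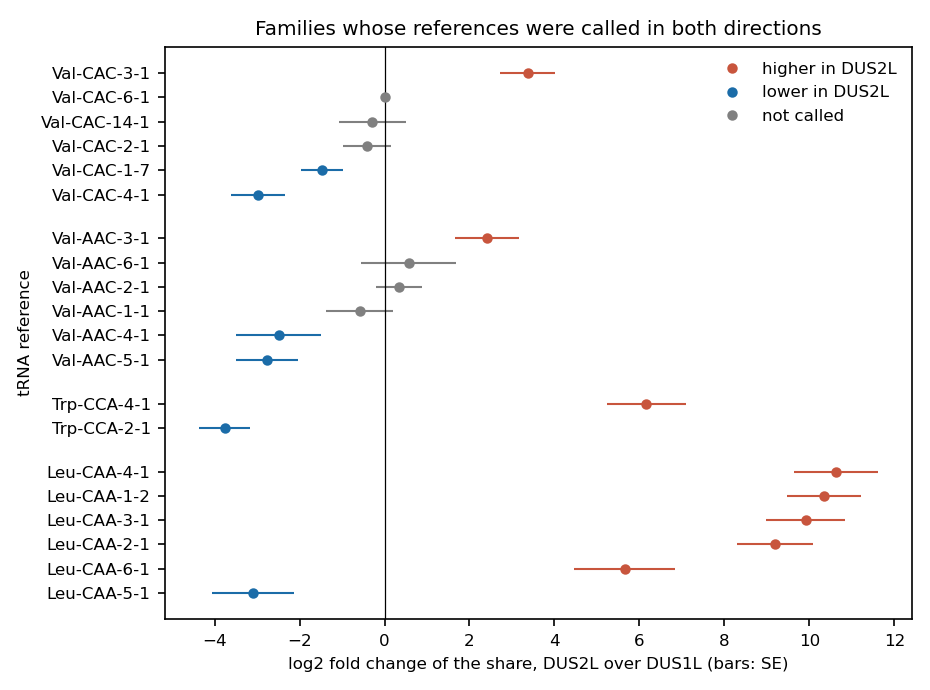
Log2 fold change of the share of sense counts, DUS2L over DUS1L, for each tested reference of the 4 families with references called in both directions. Points are fitted values, bars SE (omitted where the value is near 0). tRNA-Trp-CCA-4-1 sits at 6.16 and tRNA-Trp-CCA-2-1 at -3.76.

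Where on the tRNA the counts fell was compared as shares of the family total, which scale out how much of a library the family takes. The largest site count did not rise with depth beyond the second DUS1L library. Whether these shares also depend on depth was not tested. This was done in the 19 type I families with at least 50 counts in each library. With families weighted equally, the T loop share was larger in DUS1L, and the 5′ end and anticodon loop shares were larger in DUS2L. The anticodon loop difference changed sign with counts pooled over families. The T loop (positions 54 to 60) held 20.3% and 10.9% of the family total in DUS1L, averaged over families, and 5.25% and 7.45% in DUS2L. The groups did not overlap, and the difference was -9.24 points. Of the 19 families, 12 were lower in both DUS2L libraries than in both DUS1L libraries and 0 were higher. Over all 12 stretches of all 19 families, 24.1% of cases were lower in this way and 15.8% higher. In tRNA-Ile-AAT the T loop held 25.6% and 12.8% against 1.16% and 0.699%, and in tRNA-Val-AAC 23.5% and 12.1% against 0.801% and 2.07%. tRNA-Arg-TCT held 25.4% and 19.4% there against 8.59% and 8.17%. Reference position 58 held 7.07% and 4.95% against 2.76% and 3.89%, averaged over the 20 families with at least 50 counts in each library (the 19 and tRNA-Ser-TGA). Many tRNAs carry a methylated adenosine at canonical position 58, which need not be reference position 58. The GTTC of the T arm starts at 52, 53 and 54 in the printed alanine, phenylalanine and asparagine sequences. An average over families at a single reference position can therefore mix different bases. Position 59 held 5.00% and 3.81% against 1.44% and 1.98%.

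The 5′ end (positions 1 to 9) held 4.10% and 8.09% in DUS1L and 12.4% and 11.7% in DUS2L, and 9 of 19 families were higher in both DUS2L libraries and 1 lower. Position 2 was the first tRNA position with a count. Counts in this stretch need not mark contacts at the 5′ end, because the offset from counted to contacted base is not given. The anticodon loop (positions 32 to 38) held 24.8% in both DUS1L libraries and 32.2% and 30.4% in DUS2L, with 7 families higher and 2 lower. With counts pooled over families the anticodon loop difference turned from 6.503 to -4.06 points. The D loop (positions 14 to 21), where dihydrouridine is made, held 12.6% and 19.0% in DUS1L and 16.1% and 15.5% in DUS2L, with overlapping values. Its difference also moved with the weighting, from 0.04 points with families weighted equally to 8.48 with counts pooled over families. Positions 26 and 27, between the D and anticodon stems, held 14.9% and 20.9% against 20.2% and 21.7%, also with overlap. In an exact two-sided permutation test every stretch whose groups did not overlap reached p = 0.333, the smallest that 2 against 2 libraries allow, so no stretch could pass a threshold of 0.05.

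**Figure D4:**
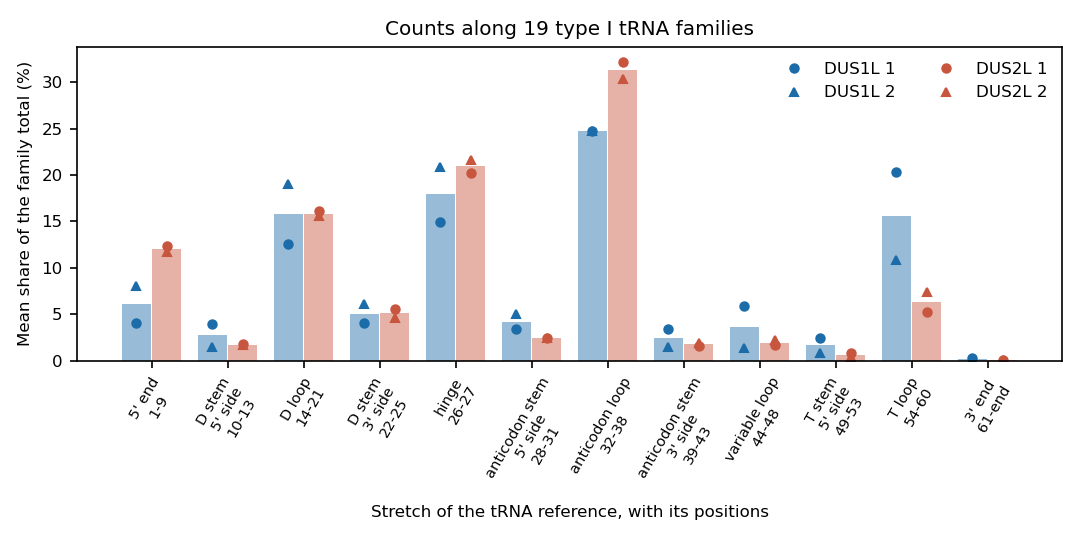
Mean share of the family total (%) in 12 stretches of the tRNA reference over 19 type I families of equal weight. Bars are means of 2 libraries, points single libraries. In the T loop both DUS1L points lie above both DUS2L points, and in the D loop the points overlap.

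Within the D loop of the valine tRNAs the values of the enzymes lay apart at single positions, with no site called. In tRNA-Val-CAC position 20 held 15.0% and 43.8% of the family in DUS1L and 8.54% and 6.36% in DUS2L. Position 16 of the same family held 7.72% and 2.43% against 11.4% and 11.3%, and position 18 held 2.81% and 0 against 9.65% and 7.85%. The DUS1L values lay above those of DUS2L at 20 and below them at 16 and 18, without overlap. tRNA-Val-TAC gave 13.3% and 31.5% at position 20 against 6.36% and 4.92%, and 6.69% and 0.806% at position 16 against 15.97% and 17.95%. None of these sites passed the test of site use (for tRNA-Val-CAC position 20, unadjusted p = 0.00387 and adjusted p = 0.163). Averaged over the 20 families tested, position 20 held 1.89% and 4.57% in DUS1L and 1.30% and 1.13% in DUS2L, and position 16 held 1.89% and 1.62% against 3.77% and 3.83%. At position 20, 5 of the 20 families were higher in both DUS2L libraries and 6 lower, which gives no common direction. Its DUS1L average rests largely on tRNA-Val-CAC and tRNA-Val-TAC, with family means of 29.4% and 22.4% at position 20. At position 16, 7 families were higher in this way and 3 lower, and at position 17, 11 were higher and 3 lower. The next positions went the same way, with 8 higher and 1 lower at position 18 and 9 higher and 0 lower at position 19. At position 15, 1 was higher and 6 lower. The DUS2L excess was thus not particular to positions 16 and 17. The shares over all 1560 pairs of a family and a position were 12.9% and 9.36%. These pairs include positions without a count in any library, which can be neither higher nor lower and reduce both shares.

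Most leading sites were shared. In 13 of 20 families with at least 50 counts in each library the same position led in both enzymes, by the mean share over 2 libraries. A single library could differ. In the first DUS1L library tRNA-Arg-TCG had 10.2% at position 58 and 8.94% at its leading position 26. In the same library tRNA-Ser-TGA had 40.9% at position 67 and 16.2% at 26, and tRNA-Val-AAC 25.6% at position 15 and 8.30% at 2. tRNA-Phe-GAA was led by position 37 of the printed sequence, next to the anticodon and known as the site of a bulky modified guanosine, with 1125 and 555 counts on that reference in DUS1L and 219 and 267 in DUS2L. Position 37 held 25.7% and 50.9% of the family in DUS1L and 74.5% and 80.9% in DUS2L, without overlap and not called (adjusted p = 0.429). The D loop of tRNA-Phe-GAA held 1.69% and 15.2% in DUS1L and 3.06% and 0.303% in DUS2L. In tRNA-Asn-GTT position 27 held 47.9% and 45.6% against 32% and 31.1%. tRNA-Arg-CCT was led by position 32 in both enzymes, with 28.7% and 69.4% of the family in DUS1L and 52.9% and 50.2% in DUS2L. tRNA-Arg-ACG was led by position 37, with 28.2% and 64.5% against 48.3% and 48.9%, and tRNA-Arg-TCG by position 26, with 8.94% and 45.2% against 26.7% and 26.1%. In these 3 arginine tRNAs the DUS2L values lay between the 2 DUS1L values.

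**Figure D5:**
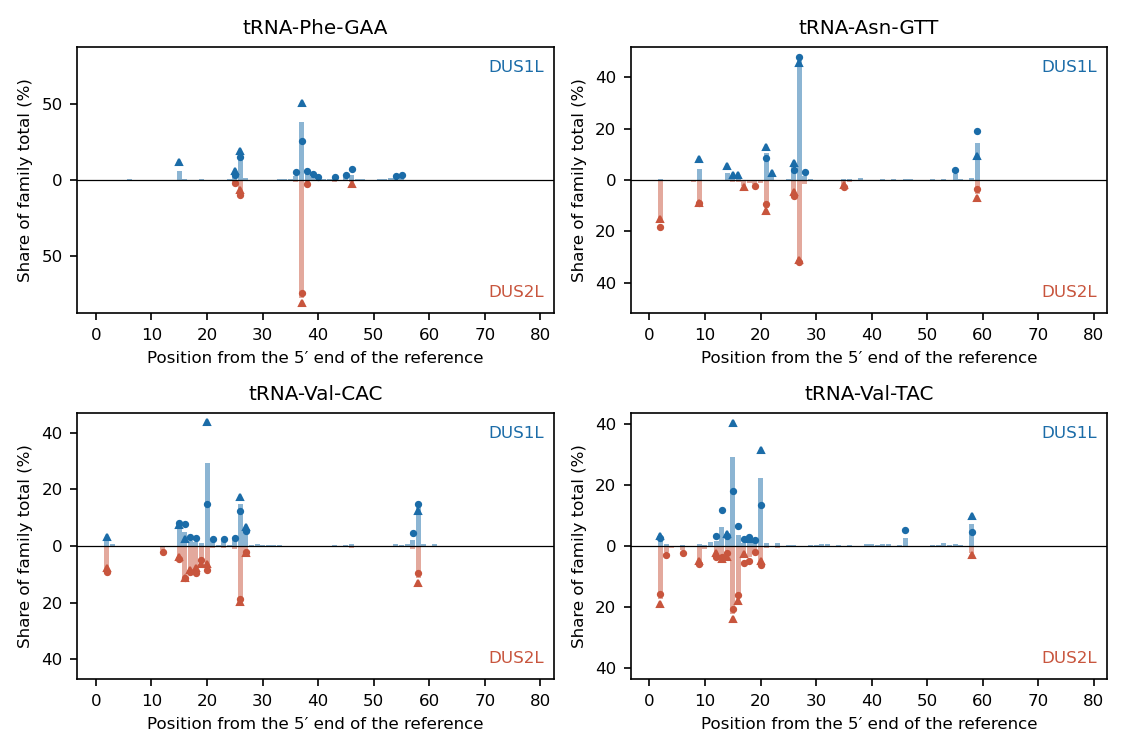
Share of the family total (%) at each position from the 5′ end in 4 families, DUS1L upward and DUS2L downward. Bars are means of 2 libraries, and points single libraries at 2% or more. tRNA-Phe-GAA is led by position 37 in both enzymes, and position 2 of tRNA-Asn-GTT appears in DUS2L alone at this scale.

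Of 801 sites tested for their share of the family total, 4 were higher in DUS2L (0.499%) and 0 were lower by edgeR, with 42 higher and 66 lower at an unadjusted p under 0.05, and 3 and 0 called by DESeq2's Wald test. Of the 4, 3 were position 2, at the 5′ end and the first tRNA position with a count. The offset from counted to contacted base is not given, so these sites need not be contacts at the 5′ end. Position 2 of tRNA-Asn-GTT held 0.386% and 0.680% of the family in DUS1L and 18.4% and 15.3% in DUS2L (log2 5.21 ± 1.11, adjusted p = 0.00236). Position 2 of tRNA-Ala-AGC had 1 and 0 counts in DUS1L and held 12.1% and 10.1% in DUS2L (adjusted p = 0.0464). Position 2 of tRNA-Ser-TGA had 0 counts in DUS1L and held 4.09% and 3.88% in DUS2L (adjusted p = 0.0464). The other called site was position 33 of tRNA-Arg-TCG, in the stretch of the anticodon loop, with 3.87% and 0.989% against 16.2% and 15.1% (log2 2.66 ± 0.71, adjusted p = 0.0464). With either DUS2L library left out, none of the 4 was called (0 higher and 0 lower), and without the second DUS1L library 61 were higher and 109 lower. Averaged over the 20 families, position 2 held 2.71% and 5.75% in DUS1L and 9.23% and 9.19% in DUS2L. Of the 20, 10 were higher in both DUS2L libraries and 1 lower. Over all pairs of a family and a position the shares were 12.9% and 9.36%. tRNA-Val-AAC was among the families with overlapping values, at 8.30% and 63.8% in DUS1L (145 and 37 counts) against 32.6% and 27.9% in DUS2L.

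For some families positions could be described in both libraries of DUS2L but not of DUS1L. Of 22 tRNA families with at least 50 counts in each DUS2L library but not in each DUS1L library, 14 are type I, and in these the 5′ end held 39.7% ± 0.475 and the D loop 34.3% ± 0.573 of the family total, against 2.19% ± 0.649 for the T loop (SD over 2 libraries). tRNA-Glu-CTC had the largest D loop share of the 14, 82.1%, spread over positions 16 (13.5% and 11.9%), 17 (14.2% and 12.4%), 18 (16.5% and 17.1%) and 19 (21.8% and 25.4%). tRNA-Pro-AGG and tRNA-Pro-CGG were led by position 16, with 48.3% and 54.2% of the first and 40.9% and 42.0% of the second. tRNA-Pro-TGG was led by position 9, and in the printed reference the counts ended at position 15, which held 36.3% and 30.6%.

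In tRNA-His-GTG no position held more than a mean of 9.55% of DUS2L counts. Position 2 of its sequence had 7 and 0 counts in DUS1L and 1260 and 1302 in DUS2L. Position 20 had 1 and 0 against 1082 and 1135, and position 58 had 42 and 2 against 799 and 1069. Of the 95 DUS1L counts on this tRNA 46.3% lay at position 58, and of the DUS2L counts 6.77%, while 11 of the 15 in the second DUS1L library lay at position 33. tRNA-Asp-GTC was led by position 9 in DUS2L, with 16.8% and 14.9%. In the first DUS1L library, with 92 counts, position 33 led with 22.8%, and position 9 held 20.7%. tRNA-Gln-CTG had 54.5% and 58.3% at position 9 in DUS2L, which also led the first DUS1L library with 36.1% of 305 counts. tRNA-Gly-CCC had 23.4% at position 2 and 22.8% at position 9, summed over the DUS2L libraries on the printed reference. The leucine tRNAs were led from further along: tRNA-Leu-CAA was led by position 38 (31.8% and 29.1%) and then 27 (26.2% and 28%), and tRNA-Leu-TAG by position 27 (31.8% and 32.9%). The serine families tRNA-Ser-AGA, tRNA-Ser-CGA and tRNA-Ser-TGA were led by position 26, with 75.3%, 34.8% and 22.7% as means of the DUS2L libraries.

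Ribosomal RNA was almost absent from DUS1L and held 16.5% ± 4.05 of DUS2L counts (SD, n = 2). tRNA held 98.7% and 99.5% of DUS1L counts and 80.6% and 86.4% of DUS2L counts, a difference of -15.6 points (exact permutation p = 0.333, the smallest possible). All 5 rRNA classes were higher in DUS2L, against 50.9% of all families, with a median log2 fold change of 3.68. In the treated libraries the 45S spacers and 5.8S rRNA were not called by edgeR (adjusted p = 0.186 and 0.622). 28S rRNA, the large-subunit RNA, held 0.705% and 0.312% of DUS1L and 14.4% and 10.1% of DUS2L counts (log2 4.56 ± 0.52, adjusted p = 0.0019). 18S rRNA, of the small subunit, held 0.314% and 0.122% against 3.47% and 2.46% (log2 3.68 ± 0.68, adjusted p = 0.00658). The spacers of the 45S precursor held 0.285% and 0.0407% against 1.24% and 0.911% (log2 2.56 ± 0.87, adjusted p = 0.0413). With either DUS2L library left out 2 of the 5 classes were called. Then 18S had an adjusted p of 0.102 and 0.0592 in edgeR. Without the first DUS1L library 5.8S rRNA had a log2 fold change of 2.17 and an adjusted p of 0.181, and the 45S spacers had a log2 fold change of 4.72. The difference between the enzymes in how the site files are named bears on these values as on all others.

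The 28S counts of DUS2L were spread over 2499 and 2433 sites, the 10 largest of which held 11.2% and 15.7%. The leading site by mean share, base 324 of 28S, had 360 and 702 counts in DUS2L and 0 in both DUS1L libraries. Base 2890 had 333 and 505 against 1 and 0. Base 4487, the largest 28S site of the first DUS2L library, had 373 and 353 against 0 and 0. The next, bases 1322 and 2145, had 164 and 201, and 150 and 192. Over the molecule the stretch of 500 bases from base 2001 held the most, 21.7% and 20.7% of 28S counts. In DUS1L base 1850 of 18S, close to its 3′ end, had 46 and 5 counts, against 21 and 56 in DUS2L, and base 246 had 59 and 0 against 1 and 3.

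The authors' peaks, listed for each library on its own, overlapped in part. They numbered 126 and 37 in DUS1L and 200 and 201 in DUS2L. In DUS1L 26 and 0 of them lay on rRNA, and in DUS2L 85 and 85. After merging within an enzyme, 51 peaks overlapped by at least 1 base on the same strand, 34.5% of the 148 DUS1L peaks and 17.1% of the 298 DUS2L peaks. Peaks with a score of at least 50, the authors' value, shared 20 of 69 and 117. The library with the fewest peaks, the second of DUS1L, also had the lowest depth, whose part in the peak number was not tested.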

How the data were processed

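The site files of 4 untreated iCLIP libraries were used, with the 4 treated libraries beside them. Their counts per position are as the authors deposited them: reads were aligned with STAR 2.7.0f to hg38 per the submitters' processing notes, while the sources used here do not give the filters, the use of molecular barcodes, the peak caller or the offset from counted to contacted base. Peak scores, and score thresholds on them, are the authors' deposited values. Sense counts were summed per tRNA family (amino acid and anticodon), reference and position. In edgeR 4.0.16 (R 4.3.3) features with at least 10 counts over the 4 libraries were tested by quasi-likelihood, with total sense counts as library size and Benjamini-Hochberg adjusted p under 0.05 called. Site use took the family total as offset, in families with at least 50 counts in each library. DESeq2 1.42.0 and TMM scaling were alternatives. SE are the log2 fold change over the root of its F statistic. Peaks were merged and intersected with bedtools 2.31.1. Scripts were tested on simulated data. Counting intervals (95%) cover counting error only.

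Families were named where among the 10 largest changes in either direction or the 6 largest shares of an enzyme; others were named after their values were seen, as members of amino acid lists or as not called. Members and lists were chosen with earlier results of these data known. Nothing says the replicates came from separate extractions beyond the word biological, so p-values measure the spread between these libraries. Of 413 tRNA gene names, 398 matched RefSeq, and 13 genes had a sequence in neighbouring genes' windows, from which strand was inferred.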

Additional observations from a re-analysis of the deposited data

Results flagged for a closer look

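Counts on the antisense strand of the references lie outside the comparisons and were above the limit that a count of 0 allows in each of the 4 libraries. They made up 0.728% and 0.352% of all counts in the DUS1L libraries (1058 and 26 counts) and 0.433% and 0.420% in the DUS2L libraries (565 and 726), against limits of 0.00206%, 0.0406%, 0.0023% and 0.00174%. In the first DUS1L library and both DUS2L libraries most lay on the 45S spacers (359, 254 and 193 counts) and on 28S rRNA (400, 157 and 190). In the second DUS1L library these had 3 and 7 counts, and 18S rRNA had 9. The second DUS2L library also had 122 on tRNA-Gln-CTG, and the first DUS1L library 84 on tRNA-Leu-CAA, where the DUS2L libraries had 3 and 2. The origin of these counts was not tested.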

How the results depend on the processing

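Of the single results recomputed, 403 of 427 for families, 426 of 491 for references and 32 of 54 for sites kept their direction and their side of the threshold. Leaving out one library at a time gave 18 to 29 families higher and 6 to 24 lower, 33 to 84 references higher and 5 to 92 lower, and 0 to 61 sites higher and 0 to 109 lower. DESeq2's Wald test called 13 families lower, and lower references numbered 40 with TMM, 42 with DESeq2's size factors and 28 with the Wald test. tRNA-Val-CAC turned to 0.47 with either DESeq2 setting, tRNA-Val-CAC-1-7 to 0.54 with TMM and 0.31 with both DESeq2 settings, and tRNA-Leu-CAA-5-1 lay between -3.80 and 6.31 with single libraries left out, turning without the first DUS1L library. Higher sites numbered 8 with families of 20 counts, 0 with 200, 1 with a minimum of 1 count, and 40 (with 311 lower) with the library total as offset. They were 44 (64 lower) with all 8 libraries, 8 (4 lower) without sites above 500 counts, and 89 (157 lower) with the first DUS1L library alone, a setting added after seeing the data. Same-numbered libraries deviated together with r = 0.114 over 2 pairs, which does not establish a pairing. The replicate block gave 27 families higher and 17 lower, 70 and 64 references, and 0 and 0 sites. With each site counted once, and without sites above 500 counts, the class differences in points were -39.8 and -23.9 for tRNA, 27.1 and 17.8 for 28S, 8.02 and 4.37 for 18S, 3.82 and 1.44 for 45S spacers, 0.476 and 0.199 for 5S, and 0.345 and 0.0781 for 5.8S. Stretch differences moved as follows. Counts pooled over families gave 8.48 for the D loop, -4.06 for the anticodon loop and -0.286 for the 3′ end. Families of 200 counts gave 13.1 for the anticodon loop and -1.47 for the 3′ side of the D stem, and those of 20 counts -3.47 for the 5′ side of the anticodon stem. Without sites above 500 counts the values were 12.5, -2.82 and -4.78 for these, and -0.611 for the 3′ end. Borders a base nearer the start gave 1.13 for the 5′ side of the D stem, -0.0994 for the 5′ side of the anticodon stem and -0.296 for the 3′ end, and borders a base further -0.0775 for the anticodon stem. The cause of these changes was not tested. The 7369 sense counts of the second DUS1L library limit every DUS1L spread.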
